A study of Mus musculus with 9 samples.

Results

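The proteasome subunit genes examined here were the genes of the feature list whose symbol is Psma, Psmb, Psmc, Psmd, Psme, Psmf or Psmg followed by a number, leaving out Psmb8 and Psmb9. This naming rule used no measured value and took 46 of 32289 features. By role they were 8 alpha-ring genes (Psma1 to Psma8), 7 constitutive beta-ring genes (Psmb1 to Psmb7), 2 tissue-specific catalytic genes (Psmb10 and Psmb11), 6 regulatory-particle ATPases (Psmc1 to Psmc6), 11 non-ATPase regulatory-particle subunits, 3 chaperones of regulatory-particle assembly (Psmd5, Psmd9 and Psmd10), 4 activators (Psme1 to Psme4), the inhibitor Psmf1 and 4 chaperones of core assembly (Psmg1 to Psmg4). All 46 had at least 1 UMI (unique molecular identifier, 1 counted RNA molecule) in the cells kept. Psmb11, a thymus-specific catalytic subunit, had 51 UMIs in all kept cells and was not tested in any comparison, and Psma8, a testis-specific alpha subunit, had 126 UMIs and passed the filter on low counts only in the sum over all cells. Psme2b, a copy of Psme2 that the rule does not take, had 308 UMIs against 12204 for Psme2, and reads that match both copies make the level of Psme2 uncertain.

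The study profiled supratentorial ependymoma driven by the ZFTA-RELA fusion in mice by 5′ droplet single-cell RNA sequencing. The 5 tumor libraries came from EPZFTA-RELA mice labelled NestinCreERT2;Fus1, and the 4 control libraries from brains of mice labelled NestinCreERT2;TdT; all mice were between 6 and 8 weeks old. Both groups carry the NestinCreERT2 allele, a tamoxifen-inducible Cre driven by Nestin, which in the tumor mice switches on the fusion in embryonic radial glia, so the control mice share the Cre and lack the fusion. The labels tie no tumor to a control mouse and do not state that each library is 1 mouse, so p-values measure the spread between these libraries, which are called controls 1 to 4 and tumors 1 to 5.

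The proteasome degrades proteins tagged with ubiquitin. Its core is a barrel of alpha and beta rings, in which Psmb5, Psmb6 and Psmb7 encode the constitutive protein-cutting subunits, while Psmb10, together with Psmb8 and Psmb9, encodes the replacements that immune cells and interferon-treated cells build into the immunoproteasome. The regulatory particle binds ubiquitin chains, unfolds the substrate with its ring of ATPases (the Psmc genes) and feeds it into the core. Psme1 and Psme2 encode the subunits of the interferon-inducible cap PA28, which opens the core without needing ubiquitin and is known for its part in making peptides for MHC class I. In microglia, the resident macrophages of the brain, this branch of the system is inducible, whereas most other subunits are regarded as housekeeping genes, whose transcription is raised together by the factors NRF1 (Nfe2l1) and NRF2 (Nfe2l2) through antioxidant response elements.

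Promoters of 38 of the 46 genes were found in the RefSeq promoter table (GRCm38.p6, 250 bases before to 50 bases after each start). An antioxidant response element, searched as TGACNNNGC on both strands, lay in 6 of the 38 (15.8%) against 14.0% of 27025 genes with a promoter. An interferon-stimulated response element, searched as GAAA, any 2 bases and GAAA on both strands, lay in 5 of the 38 (13.2%) against 3.99%. The first was in Psmb5, Psmb6, Psmc6, Psmd9, Psmd12 and Psme4, and the second in Psmb3, Psmd4, Psmd9, Psme1 and Psmg4. CCAAT boxes lay in 13 of the 38 (34.2%) against 41.1% of all genes with a promoter. In each search a gene was counted if any of its promoters matched. The matches in Psmb6, Psmb5 and Psme1, a catalytic pair and a PA28 subunit among the genes named throughout, are shown with 10 bases on each side and the match in capitals. The match ends 1 base before the start in Psmb6, lies 47 to 39 bases before the start in Psmb5, and lies 10 to 19 bases after the start in Psme1, where it reads on the opposite strand. The promoter of Psmb10, searched alike, held no match to any of these motifs. A match describes the letters and not binding of a factor.
Psmb6, chr11:70525338-70525366 (+ strand): ctaaagagagTGACGGAGCgctttacgac
Psmb5, chr14:54618024-54618052 (- strand): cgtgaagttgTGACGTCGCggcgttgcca
Psme1, chr14:55578493-55578522 (+ strand): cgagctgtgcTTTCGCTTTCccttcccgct

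Control libraries held 101060608 to 178086164 UMIs over 75222 to 86516 barcodes, and tumor libraries 14967680 to 69411387 UMIs over 9001 to 26341 barcodes. The groups overlapped in neither measure, so the same limit on barcodes per library took in a larger share of them in tumors. The part of library size in the comparisons of tumors with controls was not tested. Between 1577 and 5928 cells per library were kept. Cells were placed in gates by known markers, at least 3 of 8 for a cell type and more than for any other type. Neuron-gated cells were the most frequent in controls (3407 to 5023 per library), and in tumors they numbered 1 to 833. No control cell passed the neural progenitor gate, while the tumors held 21, 565, 95, 1570 and 1194 such cells, which were not called tumor cells here because the fusion was not read. The control gates carried other cell types' RNA: the summed level of the 8 neuron markers in the microglia/macrophage gate, for example, was 3633 to 4325 CPM (UMIs per 1000000 UMIs of the same cells) in controls and 150.4 to 1266 CPM in tumors. Tumor gates held neural progenitor markers as well. These 8 markers summed to 164 to 1148 CPM in the microglia/macrophage gate of tumors and 244 to 358 CPM in controls. In the oligodendrocyte gate they summed to 166 to 1454 and 238 to 296 CPM, and in the endothelial gate to 177 to 699 and 311 to 349 CPM. Their part in the comparisons was not tested. Pairs of libraries that shared cell barcodes shared 1 to 10 of them.

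Summed over the 46 genes, proteasome transcripts made up a larger part of the RNA in tumors than in control brains when all kept cells were added together. The sums were 3756, 3945, 3765 and 3906 CPM in controls 1 to 4 and 4276, 6057, 4604, 8089 and 6768 CPM in tumors 1 to 5. All 5 tumors lay above all 4 controls, the controls lay within a narrow band, and tumor 4 was the highest of the tumors in every gate in which it had at least 20 cells. Ribosomal protein genes took 3.67% to 4.11% of UMIs in controls and 8.09% to 16.3% in tumors, and the nuclear RNA Malat1 8.34% to 9.88% and 1.74% to 3.98%. Mitochondrial transcripts took 7.53% to 8.55% of UMIs in controls and 9.64%, 7.10%, 3.75%, 2.11% and 3.18% in tumors 1 to 5, lowest in tumor 4. The part of these RNAs in the result was not tested. The 3000 barcodes with the fewest UMIs in each library ran the other way, at 5417, 5442, 5637 and 5856 CPM in controls against 3345, 4119, 3428, 5387 and 4826 CPM in tumors. These barcodes also differed in depth, with medians of 691 to 1338 UMIs in controls and 559 to 649 UMIs in tumors. Sums over all kept cells move with the makeup of a library as well as with the level in a cell type, and the gates take the cell types one by one.

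**Figure D1:**
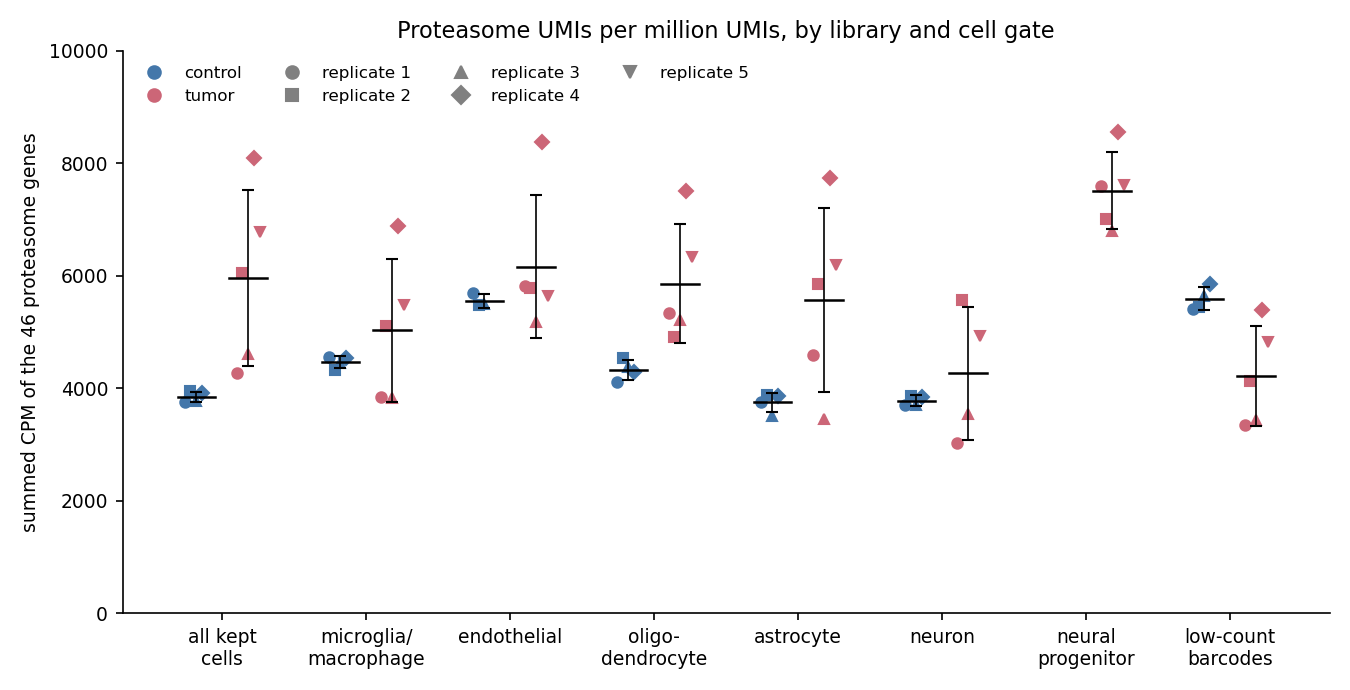
Summed level of the 46 proteasome genes (y axis, UMIs per 1000000 UMIs, from 0) by cell gate (x axis) in each control (blue) and tumor (red) library; symbols give the replicate, horizontal bars the mean and vertical bars the SD over samples with at least 20 cells. The control sums over all kept cells lie between 3756 and 3945 and the tumor sums between 4276 and 8089; tumor 4 is highest wherever it is shown.

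Gene by gene, 27 of the 45 genes tested over all kept cells rose in tumors and 0 fell, with a median log2 fold change of 0.98 against 0.04 over all genes (edgeR; of 17589 genes tested, 32.3% were called higher and 29.5% lower). One of the 27, Psma8, passed the filter on low counts only through the tumors, where it is high; without it 26 of 44 rose, with a median of 0.89. All 7 constitutive beta-ring genes and all 4 core chaperones rose, as did 4 of the 7 other alpha-ring genes, while 2 of 6 ATPases and 4 of 11 non-ATPase subunits did. The count was 24 to 36 with each library left out, and 24 of the 27 kept their calls in all 9 such fits, Psma5, Psmc2 and Psmb7 being called in 5, 4 and 2 of them. It was 26 without neuron-gated cells (median 0.80). Psme3, the nuclear PA28 variant, and Psme4, a further activator, were not called, at log2 fold changes of -0.07 and -0.13.

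Psme2 was at 17.5, 23.3, 20.3 and 21.6 CPM in the controls and 59.8, 131, 87.1, 163 and 90.1 CPM in the tumors. Its partner Psme1 was at 48.4, 57.8, 51.4 and 50.8 CPM and 99.4, 160.4, 155, 117 and 108 CPM. For both PA28 genes every tumor exceeded every control, tumor 1 being the lowest tumor (Psme2 log2 fold change 2.68 ± 0.38 (SE), edgeR adjusted p = 0.000465; Psme1 log2 fold change 1.56 ± 0.23 (SE), edgeR adjusted p = 0.000515). Psmb2, a beta-ring subunit without catalytic activity, was at 71.6, 77.4, 74.8 and 77.2 CPM in controls and 167, 204, 149, 287 and 227 CPM in tumors (log2 fold change 1.76 ± 0.29 (SE), edgeR adjusted p = 0.000877). Psmd8, a subunit of the regulatory-particle lid, was at 48.6, 54.5, 50.5 and 51.3 CPM and 91.1, 179.8, 124, 208 and 174 CPM (log2 fold change 1.91 ± 0.33 (SE), edgeR adjusted p = 0.00108). In neither gene did the groups overlap.

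Among the protein-cutting subunits, Psmb6, which cuts after acidic residues, was at 102, 118, 110.2 and 118 CPM in controls and 181, 324, 177, 512 and 371 CPM in tumors (log2 fold change 1.81 ± 0.41 (SE), edgeR adjusted p = 0.00427). Psmb5, which cuts after hydrophobic residues and is the main target of proteasome inhibitors, was at 112, 125, 118 and 124 CPM and 152, 212, 162, 402 and 272 CPM (log2 fold change 1.32 ± 0.37 (SE), edgeR adjusted p = 0.0112). Both groups stayed apart for these genes, with tumor 4 far above the other tumors. Psmb7, which cuts after basic residues, was at 103, 112, 98.6 and 108 CPM and 104, 159.8, 106, 169.7 and 162 CPM (log2 fold change 0.71 ± 0.27 (SE), edgeR adjusted p = 0.0432). Its tumors 1 and 3 lay within the control range, and its call was lost in 7 of 9 fits that left out 1 library, with adjusted p between 0.0740 and 0.0981 (every control, and tumors 2, 4 and 5). Psmb10, the immunoproteasome counterpart of Psmb7, was at 39.3, 46.8, 36.7 and 38.1 CPM and 59.6, 126, 67.5, 119.6 and 81.6 CPM, with no overlap (log2 fold change 1.49 ± 0.34 (SE), edgeR adjusted p = 0.00413). Beside the rise of Psme1, Psme2 and Psmb10 over all cells, the 8 microglia markers, all detected, summed to 537 to 662 CPM in controls and 2989 to 11856 CPM in tumors, and the microglia/macrophage gate held 2.51% to 2.80% of control and 9.79% to 23.7% of tumor cells; their part in the result was not tested. Psma8 had 4, 6, 3 and 8 UMIs in controls and 13, 36, 17, 27 and 12 UMIs in tumors, given as a description, since no control reached the filter's level of 0.623 CPM.

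**Figure D2:**
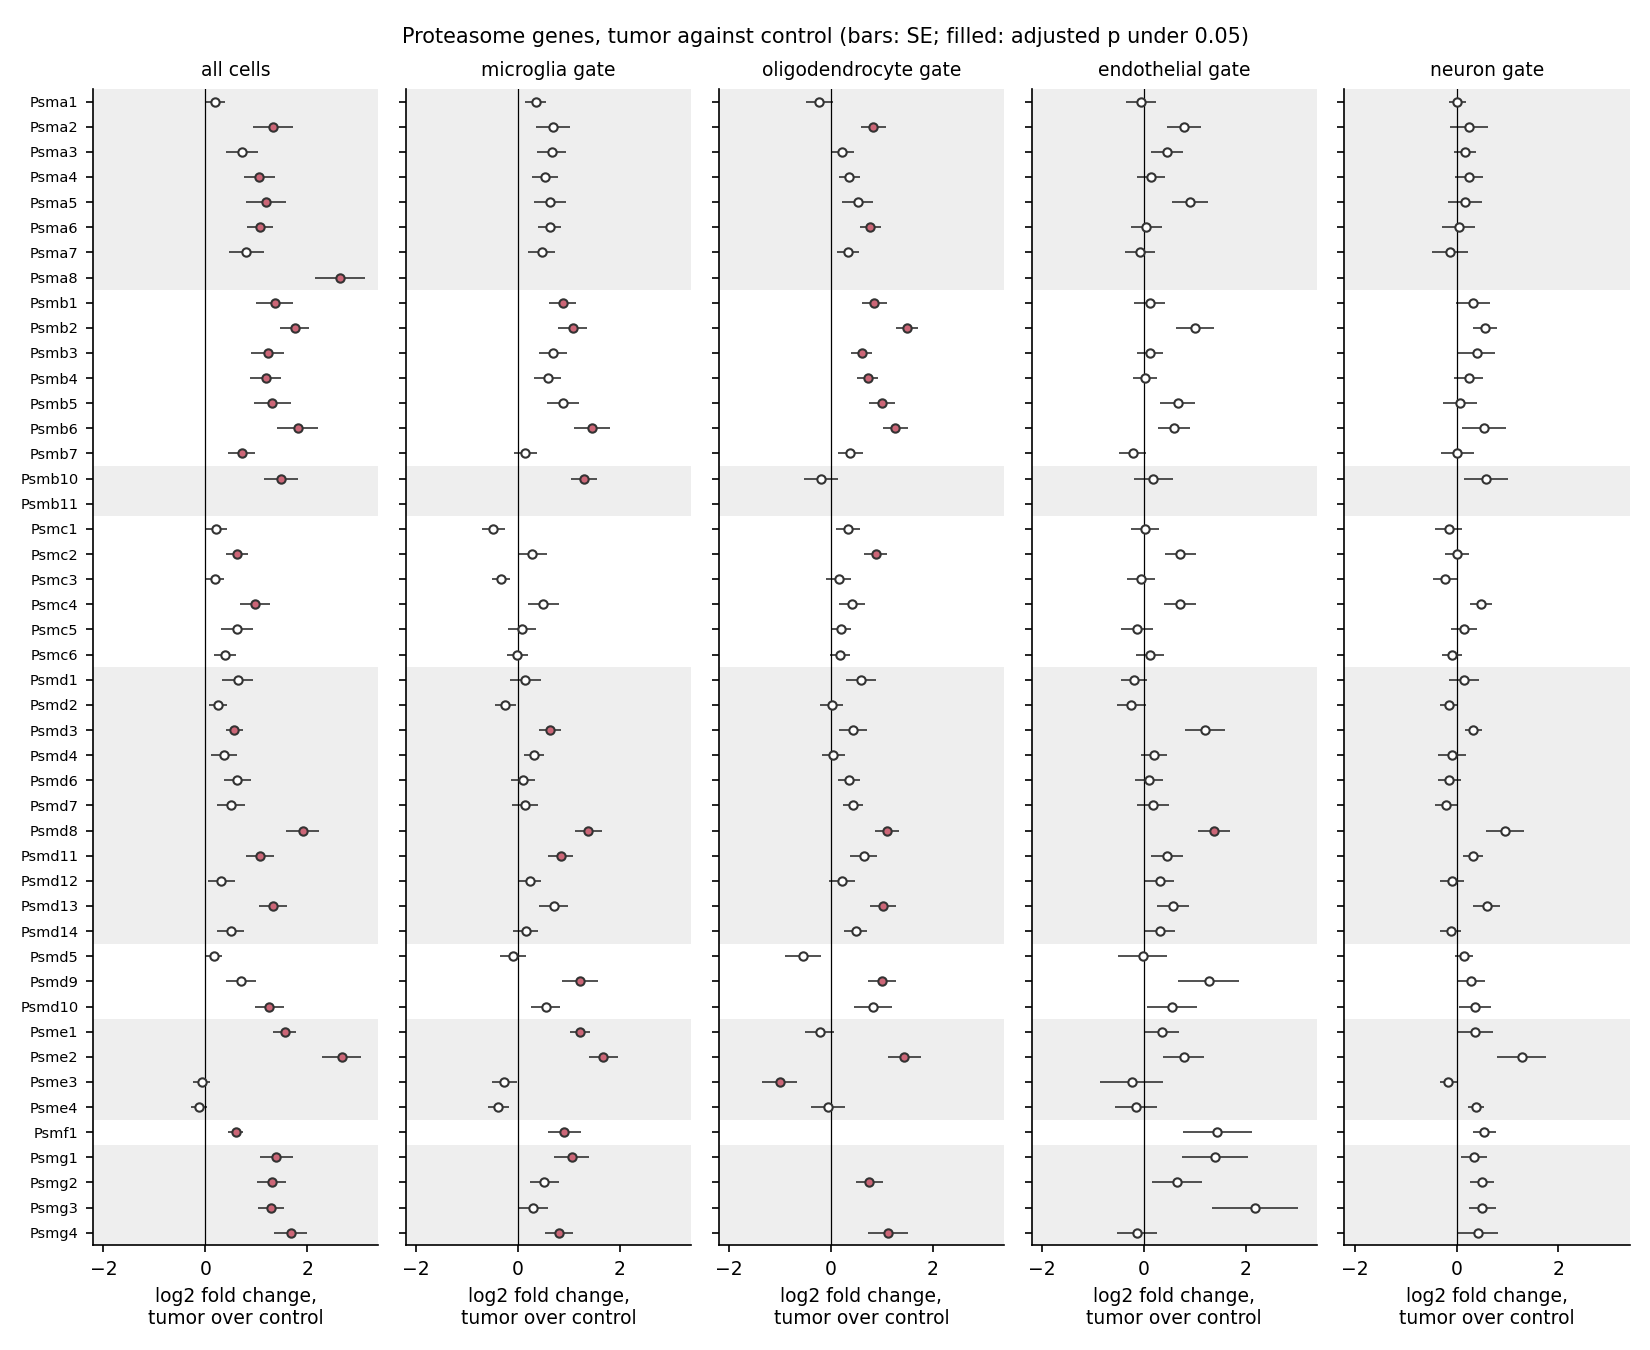
Log2 fold change of tumor over control (x axis) for each proteasome gene (y axis, grouped by role with alternating shading) in the sum of all kept cells and in 4 cell gates; bars are standard errors from edgeR, filled points have an adjusted p under 0.05, and genes without a point were not tested. Filled points number 27 over all cells, 13 in the microglia, 16 in the oligodendrocyte, 1 in the endothelial and 0 in the neuron gate.

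The gated comparisons draw on the same 9 libraries as the sum over all cells, so their values are given side by side and are not independent of it. The microglia/macrophage gate, called microglia for short, does not separate resident microglia from other macrophages. Whether their shares in the gate differed between tumors and controls was not tested. In microglia/macrophage-gated cells (100 to 155 cells per control, 278 to 723 per tumor) 13 of 44 genes rose and 0 fell, where 16.6% of the 9132 genes tested were called higher and 18.4% lower; the median log2 fold change was 0.53 over the 44 genes and 0.01 over all genes. For exon lengths of 1 to 2 kb and 2 to 4 kb, however, the medians of the proteasome genes, 0.62 and 0.33, lay below those of all genes, 0.69 and 0.35. None of the 7 alpha-ring genes and none of the 6 ATPases was called. The genes that rose were 3 of 7 constitutive beta-ring genes (Psmb1, Psmb2, Psmb6), Psmb10, 3 of 11 non-ATPase subunits (Psmd3, Psmd8, Psmd11), the chaperone Psmd9, 2 of 4 activators (Psme1, Psme2), Psmf1, and 2 of 4 core chaperones (Psmg1, Psmg4). Of these 13, the CPM of both groups did not overlap in 4 genes, Psme1, Psme2, Psmb10 and Psmd8, where 46.2% of all 1512 genes called higher with a symbol of their own (7.65% of 9126 tested) did not overlap. With each library left out in turn, 7 of the 13 kept their calls in all 9 fits. Psmb1 and Psmd9 were called in 7 of 9, Psmg1 in 5, Psmg4 in 4, Psmd3 in 3 and Psmf1 in 1.

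Psme1 was at 152, 137, 128 and 155 CPM in microglia/macrophage-gated cells of controls and 222, 286, 246, 257 and 264 CPM in those of tumors, a tight step in which the lowest tumor exceeded the highest control (log2 fold change 1.22 ± 0.19 (SE), edgeR adjusted p = 0.000869). Psme2 was at 56.1, 55.3, 71.0 and 71.7 CPM and 98.9, 178, 129, 223 and 142 CPM (log2 fold change 1.68 ± 0.29 (SE), edgeR adjusted p = 0.00144). Psmb10 was at 72.6, 48.4, 45.4 and 73.7 CPM and 111, 112, 96.8, 152 and 91.2 CPM (log2 fold change 1.30 ± 0.25 (SE), edgeR adjusted p = 0.00262). These PA28 and immunoproteasome genes kept their calls with each of the 9 libraries left out. Psmd8 was at 79.2, 88.2, 90.8 and 61.8 CPM and 115, 175, 110.4, 197 and 196 CPM (log2 fold change 1.38 ± 0.27 (SE), edgeR adjusted p = 0.00259), likewise called in all 9 such fits.

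The constitutive catalytic genes of microglia were uneven. Psmb6 was at 122, 106, 122 and 139.5 CPM in controls and 158, 262, 135, 420.2 and 295 CPM in tumors (log2 fold change 1.45 ± 0.35 (SE), edgeR adjusted p = 0.00769); only tumor 3 fell inside the control range. Psmb5 was at 148, 98.6, 125 and 149 CPM and 124, 164, 119, 315 and 186 CPM, overlapping in 2 tumors, and did not pass the threshold (log2 fold change 0.88 ± 0.32 (SE), edgeR adjusted p = 0.0518). It passed without tumor 1 (adjusted p = 0.0257) or without tumor 3 (adjusted p = 0.0176). For Psmb7 the values were 139, 147, 142 and 91.7 CPM and 92.2, 116, 85.2, 135 and 118 CPM, with no call (log2 fold change 0.14 ± 0.23 (SE), edgeR adjusted p = 0.658).

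The calls in this gate depended on the scaling. The TMM factors with which edgeR aligns the bulk of genes differed between tumors and controls by -0.380 log2 units here, against -0.247 over all cells, -0.185 in the endothelial and -0.147 in the oligodendrocyte gate; with library totals in their place the median of all genes was -0.37, that of the proteasome genes 0.14, and 5 genes rose (Psmb6, Psmb10, Psmd8, Psme1, Psme2) while 4 fell (Psmc1, Psmc3, Psmd2, Psme4). The 4 that fell on that scale were lower in every tumor than in every control in CPM, for example Psmc3, an ATPase, at 211, 185, 187 and 159 CPM against 103, 124, 122, 101 and 115 CPM. Shares of all genes called on that scale, or lower in every tumor, are not given here. These counts are therefore not set against genes in general. The count of 13 was 7 without control 2 and 21 without tumor 3. In the same cells the 8 microglia markers summed to 13295 to 16711 CPM in controls and 23883 to 38229 CPM in tumors, and the 8 oligodendrocyte markers to 2583 to 3025 and 338 to 1602 CPM, all 8 of each list being detected in both groups; mitochondrial transcripts took 8.00% to 8.58% and 2.04% to 8.46% of UMIs. Ribosomal protein genes took 6.16% to 7.18% of UMIs in controls and 14.7% to 18.0% in tumors, and Malat1 2.73% to 3.35% and 1.26% to 2.56%. The 8 cell-cycle markers summed to 8.52 to 13.2 and 29.0 to 547 CPM, with Top2a and Ube2c at 0 in controls. The part of these RNAs, and of the neuron markers given above, in the result was not tested.

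In oligodendrocyte-gated cells (94 to 201 per control, 34 to 127 per tumor), a comparison added after the cell numbers and values were seen, 15 of 41 genes rose and 1 fell, where 22.3% of 6762 genes were called higher and 24.3% lower. The median log2 fold change was 0.44 against 0.02 over all genes. Psmd10, which was not called, passed the filter on low counts only through the tumors. Without it 15 of 40 genes rose, with a median of 0.44. Of the constitutive beta ring, 6 of 7 genes rose (Psmb1 to Psmb6). Further genes that rose were Psma2 and Psma6 of 7 alpha-ring genes, the ATPase Psmc2, the non-ATPase subunits Psmd8 and Psmd13, the chaperone Psmd9, Psme2, and both core chaperones tested, Psmg2 and Psmg4. The count was 11 to 17 with each library left out, and 9 of the 16 calls held in all 9 such fits. Psma2, Psmb1 and Psmb4 were called in 8 of 9, Psmb3 in 5 (lost without any 1 control, adjusted p from 0.0715 to 0.121), Psmg4 in 4 (lost without control 1, 2 or 4 or tumor 3 or 5, from 0.0550 to 0.0911) and Psmg2 in 3 (lost without any 1 control or tumor 4 or 5, from 0.0547 to 0.0945).

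Psmb2 was at 107, 85.6, 87.6 and 101 CPM in controls and 239, 201, 221, 345 and 230.0 CPM in tumors (log2 fold change 1.49 ± 0.21 (SE), edgeR adjusted p = 0.000145). Psmb6 was at 131, 167, 121 and 166 CPM and 299, 274, 232, 507 and 333 CPM (log2 fold change 1.27 ± 0.24 (SE), edgeR adjusted p = 0.00107). Psmb5 was at 104, 164, 103 and 168 CPM and 252, 169.6, 215, 376 and 248 CPM (log2 fold change 0.997 ± 0.26 (SE), edgeR adjusted p = 0.00698). None of these beta-ring genes overlapped between groups, although tumor 2 came within 2 CPM of control 4 for Psmb5. The share of all genes without overlap was not counted in this gate, so the separation is not read as a trait of the beta ring. Psmb7 was the beta-ring gene without a call, at 147, 180.2, 108 and 106 CPM and 211, 148, 163, 122 and 157 CPM (log2 fold change 0.38 ± 0.25 (SE), edgeR adjusted p = 0.225). Psmd8 was at 42.8, 60.1, 82.4 and 69.7 CPM and 115, 115, 128, 153 and 121 CPM (log2 fold change 1.10 ± 0.23 (SE), edgeR adjusted p = 0.00216), again without overlap.

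Of the PA28 genes, Psme2 passed the test in this gate and Psme1 did not. Psme2 was at 21.4, 21.7, 15.5 and 28.8 CPM in controls and 34.1, 63.6, 37.8, 91.7 and 54.5 CPM in tumors, every tumor being above every control (log2 fold change 1.44 ± 0.32 (SE), edgeR adjusted p = 0.00298). Psme1 was at 40.1, 65.2, 43.8 and 38.5 CPM and 25.6, 31.8, 37.8, 61.1 and 42.4 CPM, with 2 tumors in the control range and 3 below it (log2 fold change -0.22 ± 0.28 (SE), edgeR adjusted p = 0.536). Psmb10 overlapped as well, at 37.4, 55.0, 30.9 and 40.9 CPM and 21.3, 42.4, 40.7, 43.7 and 12.1 CPM (log2 fold change -0.19 ± 0.33 (SE), edgeR adjusted p = 0.648). Psme3 fell, from 26.7, 40.9, 43.8 and 40.9 CPM to 21.3, 8.83, 26.1, 8.73 and 24.2 CPM (log2 fold change -1.004 ± 0.34 (SE), edgeR adjusted p = 0.0297), a call lost without control 2, 3 or 4 or tumor 2 (adjusted p = 0.0866, 0.0749, 0.0698 and 0.101). In these cells the 8 oligodendrocyte markers summed to 8607 to 11682 CPM in controls and 17109.7 to 48025 CPM in tumors. The 8 neuron markers summed to 5809.5 to 6533 and 52.4 to 941 CPM, and the 8 oligodendrocyte precursor markers to 198 to 265 and 726 to 1978 CPM. Mitochondrial transcripts took 8.89% to 10.9% and 2.00% to 8.90% of UMIs. Ribosomal protein genes took 4.24% to 5.19% and 5.89% to 9.48%, and Malat1 5.70% to 8.19% and 2.75% to 5.27%. The 8 cell-cycle markers summed to 9.62 to 24.1 and 25.6 to 520 CPM, with Ube2c and Cdk1 at 0 in controls. The part of these RNAs in the result was not tested.

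**Figure D3:**
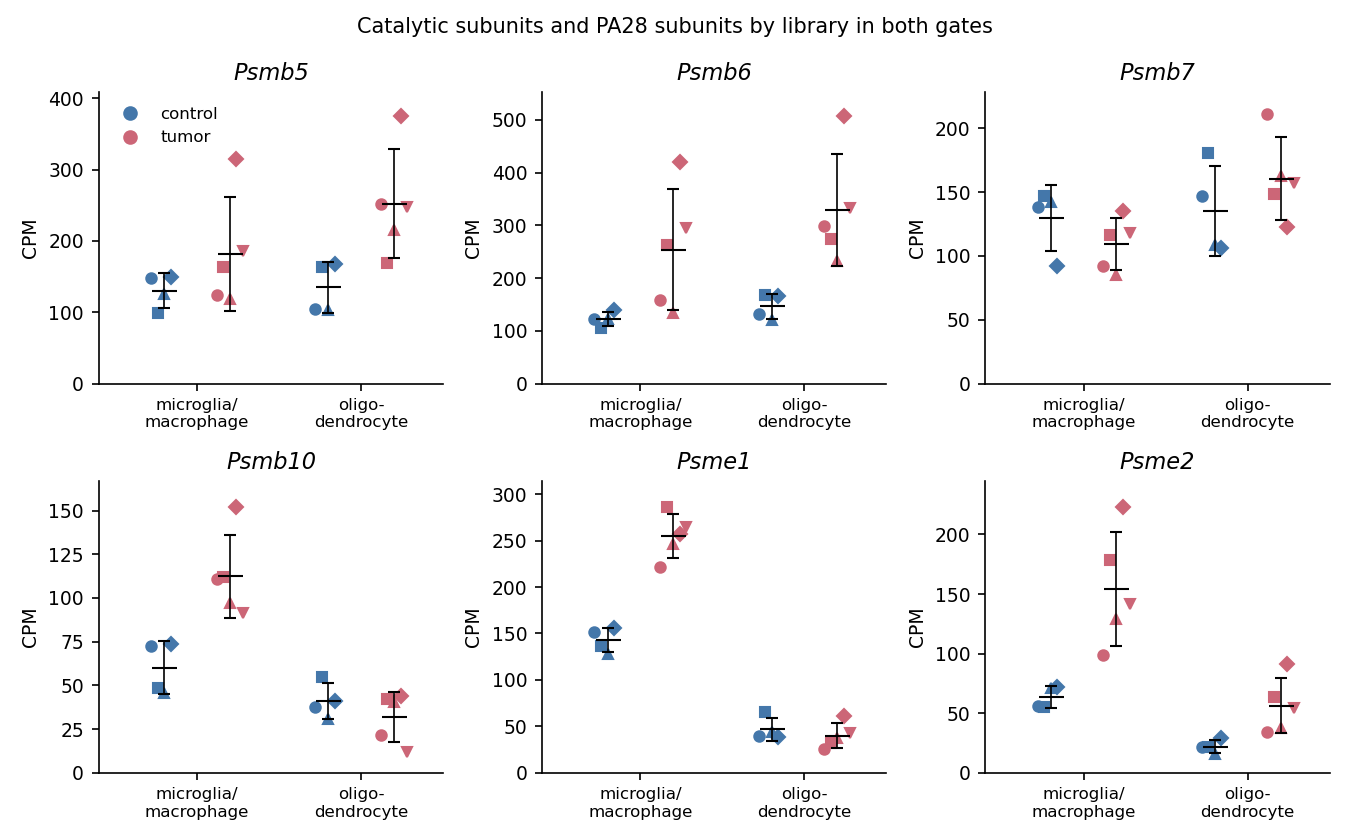
Level of 6 proteasome genes (y axis, UMIs per 1000000 UMIs of the gate, from 0) in microglia/macrophage-gated and oligodendrocyte-gated cells of each control (blue) and tumor (red); symbols give the replicate as in the plot of summed levels, and black bars the mean and SD over 4 controls or 5 tumors. Psme1 separates the groups in microglia (128 to 155 against 222 to 286 CPM) and overlaps in oligodendrocytes (38.5 to 65.2 against 25.6 to 61.1 CPM), while Psmb6 is higher in tumors in both.

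Whether the change in tumors differed between both gates was tested directly, with the library as a block. It was called for 2 of 43 genes, Psme1 and Psmb10, both more positive in microglia, where 5.44% of 9221 genes were called more positive and 5.24% more negative, so the members were not called more often than genes in general. The change of Psme1 was larger in microglia by 1.49 ± 0.32 log2 units (SE; edgeR adjusted p = 0.00765), and that of Psmb10 by 1.60 ± 0.37 (edgeR adjusted p = 0.0118; 0.0708 without control 2, the library whose removal ended this call). The difference for Psme2 was 0.30 (adjusted p = 0.58), for Psmb5 -0.12 (adjusted p = 0.858), for Psmb6 0.16, or -0.16 with library totals, and for Psmb7 -0.17 (adjusted p = 0.783). With library totals, Psmc1 was called as well, less positive in microglia by 1.07. This comparison was added after the values of both gates had been seen.

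In endothelial-gated cells (22 to 28 cells in each of 3 controls, 109 to 162 in each of 5 tumors, control 4 being left out with 16 cells) Psmd8 rose, and it was the only one of 44 genes called, where 6.18% of 7279 genes were called higher and 5.92% lower. The median log2 fold change was 0.26 against 0.10 over all genes, and 0.19 over the 41 genes left without Psmf1, Psmg1 and Psmg3, which passed the filter on low counts only through the tumors. Psmd8 was at 128, 62.7 and 59.7 CPM in the controls used and 172, 180.1, 154, 235 and 159 CPM in tumors, without overlap (log2 fold change 1.39 ± 0.32 (SE), edgeR adjusted p = 0.0219). The call was lost without control 1, 2 or 3 (adjusted p = 0.0532, 0.107 and 0.103), which left 0 genes called, and without tumor 3 there were 2.

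The other genes followed throughout were not called in endothelial cells. Psme1 was at 128, 224 and 212 CPM in controls and 259.7, 163, 283, 279 and 138 CPM in tumors (log2 fold change 0.35 ± 0.33 (SE), edgeR adjusted p = 0.511), and Psme2 at 54.9, 89.6 and 119 and 149, 100.4, 153, 239 and 88.7 CPM (log2 fold change 0.78 ± 0.40 (SE), edgeR adjusted p = 0.214). Psmb10 was at 91.5, 116 and 113 CPM and 146, 61.2, 138, 147 and 72.2 CPM (log2 fold change 0.19 ± 0.38 (SE), edgeR adjusted p = 0.778). In all 3 genes tumors 2 and 5 lay below tumors 1, 3 and 4. Psmb5 was at 219.6, 125 and 133 and 177, 195, 169.7, 363 and 179 CPM (log2 fold change 0.67 ± 0.34 (SE), edgeR adjusted p = 0.207), Psmb6 at 165, 251 and 139 and 205, 242, 185, 372 and 256 CPM (log2 fold change 0.59 ± 0.31 (SE), edgeR adjusted p = 0.226), and Psmb7 at 146, 215 and 159 and 142, 129, 104, 157 and 151 CPM (log2 fold change -0.22 ± 0.26 (SE), edgeR adjusted p = 0.614). The 3 controls of this gate held 54641 to 150646 UMIs each. The 8 pericyte and smooth-muscle markers summed to 3184 to 4094 CPM in controls, with Acta2 at 0, and 31.8 to 2449 CPM in tumors, and the 8 neuron markers to 2091 to 3075 and 56.8 to 826 CPM. Mitochondrial transcripts took 10.9% to 12.1% of UMIs in these controls and 1.50% to 7.96% in tumors, so that both these shares and the neuron markers separated the groups; their part in the result was not tested.

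In neuron-gated cells of 4 controls and 4 tumors (tumor 4 held 1 such cell and was left out) 0 of 44 genes were called by edgeR, where 7.47% of 15184 genes were called higher and 7.19% lower. At an unadjusted p under 0.05 there were 7, and DESeq2 called 2, Psmd3 and Psme4, at log2 fold changes of 0.33 and 0.38. The shares of all genes passing either cut are not given here, so these counts are not read as a result. Tumor 2 stood apart. Psmb10 was at 37.3, 46.1, 34.8 and 35.5 CPM in controls and 35.8, 107, 27.6 and 40.0 CPM in tumors 1, 2, 3 and 5 (log2 fold change 0.58 ± 0.44 (SE), edgeR adjusted p = 0.412), and Psme1 at 44.9, 52.5, 47.8 and 47.2 and 39.8, 103, 43.8 and 50.0 CPM (log2 fold change 0.37 ± 0.35 (SE), edgeR adjusted p = 0.525). Psme2 was at 15.7, 21.2, 17.2 and 18.8 CPM and 24.8, 82.2, 13.0 and 45.0 CPM (log2 fold change 1.28 ± 0.48 (SE), edgeR adjusted p = 0.102). For each of these genes tumor 2 was the highest sample and at least 1 other tumor lay within or below the control range.

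The constitutive catalytic genes had the same order of tumors in neurons. Psmb5 was at 110.1, 120.0, 115 and 120.0 CPM in controls and 70.4, 185, 89.2 and 138 CPM in those tumors (log2 fold change 0.06 ± 0.33 (SE), edgeR adjusted p = 0.928), Psmb6 at 97.2, 112, 108 and 115 and 64.6, 263, 95.7 and 195 CPM (log2 fold change 0.54 ± 0.43 (SE), edgeR adjusted p = 0.437), and Psmb7 at 100.2, 104, 95.8 and 108 and 60.0, 146, 71.4 and 138 CPM (log2 fold change 0.02 ± 0.33 (SE), edgeR adjusted p = 0.983). Tumors 1 and 3 were below all controls and tumors 2 and 5 above them in each. Without tumor 2, 3 genes were called lower (Psma6, Psmc1 and Psmc3); without tumor 1, 5 were called higher (Psmc4, Psmd8, Psme2, Psmg2 and Psmg3), and without tumor 3, 1 was. The 8 microglia markers summed to 199.9 to 239.8 CPM in controls and 263 to 525 CPM in tumors in this gate, and the 8 neural progenitor markers to 193 to 214 and 213 to 851 CPM; their part in the result was not tested.

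Within tumors, neural progenitor-gated cells were set against microglia/macrophage-gated cells of the same 5 tumors, which asks how proteasome genes differ between both compartments. Summed over the 46 genes the progenitor gate held 7599, 7017, 6786, 8559.6 and 7606 CPM in tumors 1 to 5 and the microglia gate 3841, 5109, 3827, 6881 and 5483 CPM, the progenitor value being the higher in 5 of 5 tumors. Of 44 genes tested 13 rose and 2 fell in progenitors relative to microglia, where 19.8% of 11983 genes were called higher and 20.7% lower; the median log2 fold change was 0.37 against 0.05 over all genes. The genes that rose were 2 alpha-ring genes (Psma3, Psma4), 2 constitutive beta-ring genes (Psmb4, Psmb5), 3 of 6 ATPases (Psmc1, Psmc4, Psmc5), 5 of 11 non-ATPase subunits (Psmd1, Psmd6, Psmd7, Psmd11, Psmd13) and the core chaperone Psmg2. Both genes that fell encode PA28.

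Psme1 was at 65.6, 138, 117, 84.0 and 84.8 CPM in progenitors and 222, 286, 246, 257 and 264 CPM in microglia, with no overlap (log2 fold change -1.72 ± 0.17 (SE), edgeR adjusted p = 6.74e-05). Psme2 was at 57.4, 129, 88.8, 155 and 83.4 CPM and 98.9, 178, 129, 223 and 142 CPM, lower in progenitors in 5 of 5 tumors (log2 fold change -0.91 ± 0.15 (SE), edgeR adjusted p = 0.00185). Both calls held with each tumor left out. Psmb10 was at 8.20, 150.1, 32.3, 107 and 71.4 CPM in progenitors and 111, 112, 96.8, 152 and 91.2 CPM in microglia, lower in 4 of 5 tumors and without a call (log2 fold change -0.96 ± 0.36 (SE), edgeR adjusted p = 0.0568; 0.0431 without tumor 2). The 8 microglia markers summed to 73.8 to 211 CPM in the progenitor gate, against 23883 to 38229 CPM in the microglia gate.

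Psmg2, which encodes a chaperone that starts alpha-ring assembly, was at 115, 53.5, 78.5, 72.7 and 60.2 CPM in progenitors and 33.4, 23.7, 32.4, 44.3 and 35.9 CPM in microglia, with no overlap (log2 fold change 0.75 ± 0.18 (SE), edgeR adjusted p = 0.0117). Psma4 was at 303, 242, 232, 292 and 265 CPM and 114, 148, 103, 203 and 154 CPM (log2 fold change 0.58 ± 0.17 (SE), edgeR adjusted p = 0.0242). Psmd13, a lid subunit, was at 131, 149, 129, 149 and 119 CPM and 49.4, 87.3, 62.5, 103 and 69.2 CPM (log2 fold change 0.55 ± 0.16 (SE), edgeR adjusted p = 0.0263). In all 3 genes every progenitor value exceeded every microglia value. Psmd1, a scaffold subunit of the base, was at 131, 169, 133, 117 and 198 CPM and 49.4, 83.4, 52.8, 87.2 and 129 CPM, higher in 5 of 5 tumors with overlap between tumors (log2 fold change 0.60 ± 0.18 (SE), edgeR adjusted p = 0.0269).

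Psmb5 was at 385, 249, 265, 422 and 311 CPM in progenitors, and its microglia values are given above (log2 fold change 0.57 ± 0.19 (SE), edgeR adjusted p = 0.0426). Psmb6 was at 443, 404, 323, 561 and 428 CPM (log2 fold change 0.53 ± 0.19 (SE), edgeR adjusted p = 0.0508) and Psmb7 at 164, 199, 152, 185 and 188 CPM (log2 fold change 0.39 ± 0.14 (SE), edgeR adjusted p = 0.0562), both higher than in microglia in 5 of 5 tumors and without a call. The Psmb5 call was lost without tumor 1, 2, 3 or 5 (adjusted p = 0.093, 0.0755, 0.0542 and 0.0993), and that of Psmg2 without tumor 2 (0.0539). Of the 15 calls, 2 (Psme1 and Psme2) held with each tumor left out, so the calls of the genes that rose depended on which tumors were used. Without tumor 1, whose progenitor gate held 21 cells, 6 genes were called (3 higher, 3 lower); without tumor 2 there were 3, all lower, and without tumor 5 there were 3 (1 higher, 2 lower). With library totals in place of TMM factors, which differed by 0.316 log2 units between both gates, 32 genes were called higher and 2 lower. The share of all genes called on that scale is not given here.

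**Figure D4:**
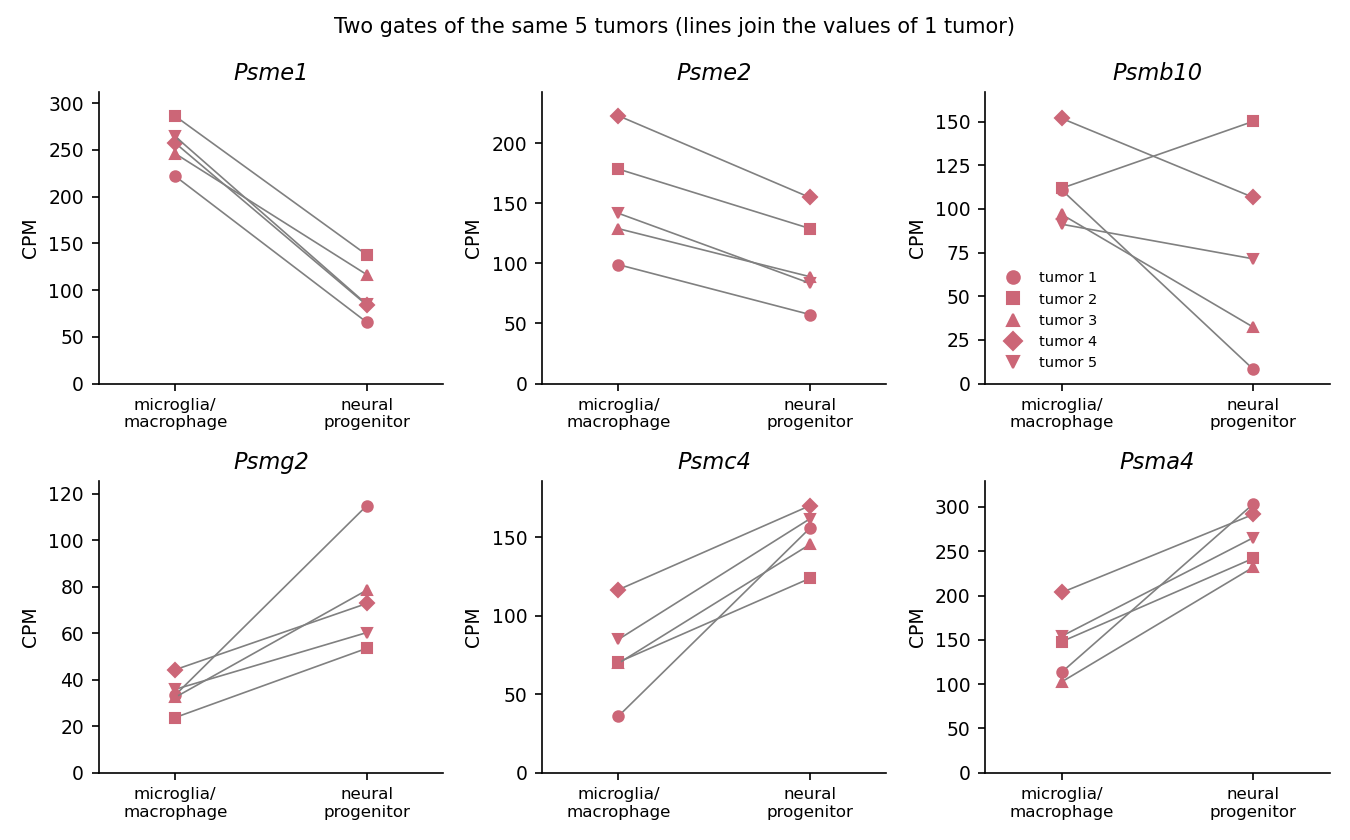
Level of 6 proteasome genes (y axis, UMIs per 1000000 UMIs of the gate, from 0) in microglia/macrophage-gated and neural progenitor-gated cells of the same 5 tumors; each line joins both values of 1 tumor. Psme1 falls in each tumor from 222 to 286 CPM in microglia to 65.6 to 138 CPM in progenitors, whereas Psmg2 goes from 23.7 to 44.3 CPM up to 53.5 to 115 CPM.

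Among progenitor-gated cells, those with at least 3 of 8 cell-cycle markers were set against those with none in the 3 tumors holding at least 20 of both (tumors 2, 4 and 5; 171, 407 and 410 cycling and 218, 728 and 318 other cells). In cycling cells 7 of 44 genes rose and 0 fell, where 12.6% of 11036 genes were called higher, a share near that of the members, and 9.89% lower. At an unadjusted p under 0.05 there were 14, a count without a share of all genes beside it. DESeq2 called 0 of the 44 genes. The median log2 fold change was 0.21 against -0.03 over all genes. The 7 were Psma1, Psma5, Psmb2, Psmb6, Psmc4, Psmd13 and Psmg2, and all of these changes were small. The median cycling cell held 8986, 9928 and 5858.5 UMIs in tumors 2, 4 and 5, and the median other cell 5461, 6685.5 and 4017.5 UMIs. Malat1 took 0.938%, 0.938% and 1.09% of UMIs in cycling cells of these tumors against 1.61%, 1.91% and 1.69% in the others. Mitochondrial transcripts took 5.80%, 1.89% and 2.83% against 7.46%, 2.21% and 3.14%, both being lower in 3 of 3 tumors. The part of depth and of these RNAs in the result was not tested.

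Psma1, an alpha-ring gene, was at 115, 143 and 147 CPM in cycling cells of tumors 2, 4 and 5 and 81.7, 113 and 115 CPM in the other cells (log2 fold change 0.46 ± 0.12 (SE), edgeR adjusted p = 0.0112). Psmg2 was at 64.8, 82.3 and 72.4 CPM and 40.1, 68.8 and 52.1 CPM (log2 fold change 0.50 ± 0.14 (SE), edgeR adjusted p = 0.0163). Psma5 was at 212, 344 and 227 CPM and 161, 286 and 192 CPM (log2 fold change 0.37 ± 0.10 (SE), edgeR adjusted p = 0.0184). In these 3 genes the cycling value was the higher in 3 of 3 tumors. Psmc4, an ATPase, was at 132, 206 and 175 CPM and 118, 149 and 144 CPM (log2 fold change 0.39 ± 0.12 (SE), edgeR adjusted p = 0.0291), and Psmb6 at 445, 623 and 447 and 389, 523 and 405 CPM (log2 fold change 0.27 ± 0.09 (SE), edgeR adjusted p = 0.0406). Without tumor 2 there were 2 calls and without tumor 4 there was 1, and 0 of the 7 held in all 3 fits with a tumor left out.

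The remaining genes followed throughout were not called between cycling and other progenitors. Psme1 was at 118, 75.4 and 75.6 CPM in cycling cells and 157, 92.7 and 97.5 CPM in the others, lower in 3 of 3 tumors (log2 fold change -0.29 ± 0.12 (SE), edgeR adjusted p = 0.104). With library totals it was called lower (-0.36, edgeR adjusted p = 0.0395) and 3 genes were called higher, without a share of all genes beside them. Psme2 was at 132, 133 and 82.6 and 125, 165 and 83.4 CPM (log2 fold change -0.04 ± 0.12 (SE), edgeR adjusted p = 0.87), and Psmb10 at 136, 85.5 and 76.0 and 142, 127 and 68.5 CPM (log2 fold change -0.13 ± 0.14 (SE), edgeR adjusted p = 0.545). Psmb5 was at 239.5, 439 and 318 and 252, 397 and 289 CPM (log2 fold change 0.14 ± 0.10 (SE), edgeR adjusted p = 0.322), and Psmb7 at 212, 201 and 202 and 195, 181 and 177 CPM (log2 fold change 0.22 ± 0.10 (SE), edgeR adjusted p = 0.149).

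**Figure D5:**
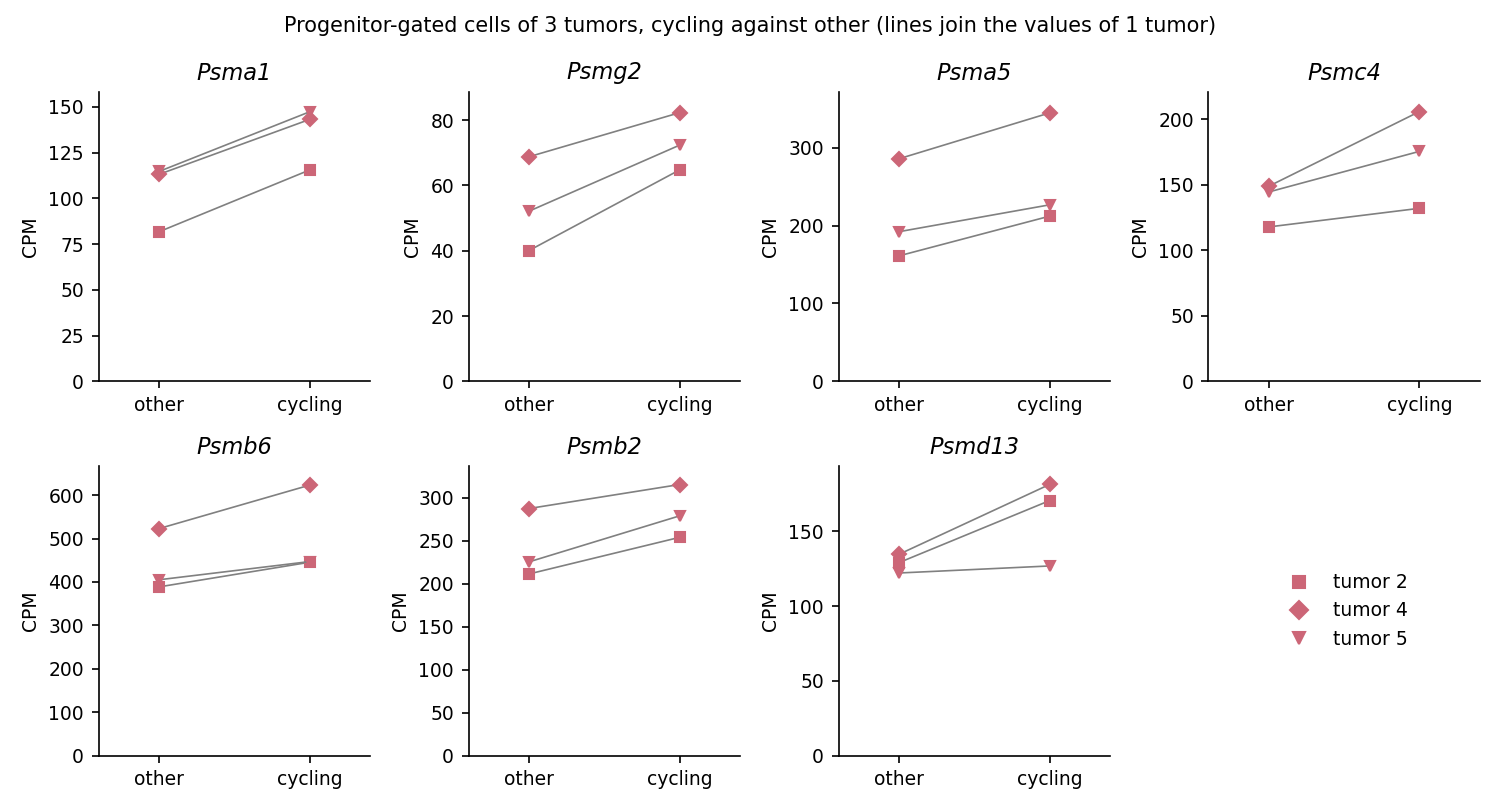
Level of the 7 genes called (y axis, UMIs per 1000000 UMIs, from 0) in other and cycling progenitor-gated cells of tumors 2, 4 and 5; each line joins both values of 1 tumor. All lines rise by small steps, Psma1 from 81.7 to 115, 113 to 143 and 115 to 147 CPM in tumors 2, 4 and 5.

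Genes that work around the proteasome were counted from a list of 33, of which 32 were in the feature list. Over all cells 15 of 32 rose and 4 fell in tumors; in microglia 10 of 31 rose and 4 fell, in oligodendrocytes 8 of 27 and 6 (leaving out Nfe2l2), in endothelial cells 2 of 30 and 1, and in neurons 4 of 32 and 0, against the shares over all genes given above. In microglia Psmb8, an immunoproteasome subunit outside the naming rule, and Rps27a, which encodes ubiquitin fused to a ribosomal protein, rose (log2 fold change 2.20 ± 0.25 (SE), edgeR adjusted p = 0.000202; log2 fold change 1.67 ± 0.21 (SE), edgeR adjusted p = 0.000323). Ubqln2, a shuttle that carries ubiquitinated proteins, and Usp14, a deubiquitinase bound to the regulatory particle, fell (log2 fold change -1.52 ± 0.26 (SE), edgeR adjusted p = 0.00129; log2 fold change -0.82 ± 0.18 (SE), edgeR adjusted p = 0.00482). Usp14 also fell over all cells (-0.77, adjusted p = 0.00138) and in oligodendrocytes (-1.17, adjusted p = 0.00147), while the subunit genes were called higher or not called there, apart from Psme3. In oligodendrocytes the ubiquitin ligase Ube3c fell (-1.11). Nfe2l2 was at 13.4 to 23.0 CPM in control and 26.1 to 67.1 CPM in tumor oligodendrocytes, given as a description, since it passed the filter on low counts only through the tumors. The other factor of this pair, Nfe2l1, fell there (-1.35, adjusted p = 0.00592; called in 9 of 9 fits with 1 library left out), as did Ddi2, the protease that activates it (-1.05, adjusted p = 0.0202; called in 7 of 9), both named here after their values were seen. Over all cells Nfe2l2 and Psmb8 had the smallest p-values among the list genes that rose (log2 fold changes 3.76 and 3.94), while Ecpas, a proteasome adaptor, fell (-0.95).

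In endothelial cells Pomp, the maturation factor of the core, rose (log2 fold change 0.96 ± 0.24 (SE), edgeR adjusted p = 0.0296), as did Rps27a (1.03), and Nfe2l1 fell (-1.02), each call being lost when control 1, 2 or 3 was left out (adjusted p from 0.0829 to 0.154); Rps27a was also lost without tumor 1, 2, 4 or 5 (0.0603 to 0.0783) and Pomp without tumor 2 (0.0516). In neurons Psmb9 and Nfe2l2 rose (3.30 and 2.55), and neither passed without tumor 2 (1.19 and 0.97, adjusted p = 0.273 and 0.0529), nor did Nfe2l2 without any 1 of the controls (0.0813 to 0.0971). Within tumors, 1 of 32 list genes, the polyubiquitin gene Ubb, rose in progenitors relative to microglia (log2 fold change 0.47 ± 0.15 (SE), edgeR adjusted p = 0.035; not passed without tumor 1, 2 or 5, adjusted p = 0.0853, 0.115 and 0.113) and 8 fell, where 19.8% of all genes were called higher and 20.7% lower, with Psmb8 and Psmb9 at -3.22 and -2.68. In cycling progenitors 4 of 32 rose and 1 fell, not more often than the 12.6% and 9.89% of all genes. The smallest p-values were those of the deubiquitinase Uchl5 (log2 fold change 1.17 ± 0.13 (SE), edgeR adjusted p = 1.24e-05) and the proteasome-bound thioredoxin Txnl1 (0.74), with Zfand5, a proteasome activator, lower (-0.60).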

How the data were processed

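Single-cell 5′ gene expression libraries, 5 of tumors and 4 of control brains, were analysed. The deposited values are raw UMI counts per gene and barcode, which the authors made with Cell Ranger 7 (submitters' processing notes; the matrix headers name 6.1.2) on mm10, before their own filters; Scanpy 1.8.2 is also named there. Groups came from the genotype labels. Barcodes were limited to the 10000 richest in UMIs of a library and to those with 200 to 6000 genes, and a mixture of 2 components on mitochondrial share and gene number (scikit-learn 1.9.0) removed damaged cells; Scrublet (Scanpy 1.11.5) removed 0.8% of barcodes per 1000 as doublets. Cells were gated by 13 lists of 8 markers (at least 3, and more than of any other list; 1 of the erythroid markers was missing). Counts were summed per library and gate with at least 20 cells.

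The sums were tested with edgeR 4.0.16 (R 4.3.3; quasi-likelihood, TMM, filterByExpr, Benjamini-Hochberg over all genes, threshold 0.05), with the library as a block within tumors; DESeq2 1.42.0 and limma 3.58.1 were alternatives. Scripts were tested on simulated data. CPM are plain counts per 1000000, while log2 fold changes carry TMM factors. Only in the microglia gate was the share of all genes without overlap counted, with tumors higher. Psmb5, Psmb6, Psmb7, Psmb10, Psme1 and Psme2 were named throughout, with up to 4 genes in each direction by smallest p that kept their sign with each library left out, and 2 pathway genes in each direction, except 1 that is not reported here. The genes and lists were chosen with earlier results of these data known; the oligodendrocyte and between-gate comparisons and library-total scaling were added after the data had been seen. Fold changes of genes at few UMIs carry counting error beside the spread between libraries. Control 4's barcode and gene lists were shorter than its matrix (80865 of 80887 barcodes). All columns of that matrix were ranked by UMIs, including any beyond the barcode list. Its rows were named from the gene list of control 1, and control 4 was left out of the count of shared barcodes.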

Additional observations from a re-analysis of the deposited data

Results flagged for a closer look

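Of 95 groups of 4 or 5 samples checked with Dixon's test, 6 held a sample far from the others, and chance alone gives about 1 in 20. In control microglia Psmb7 was at 91.7 CPM in control 4, against 139 to 147 CPM in the other controls. In oligodendrocyte-gated cells Psmb2 was at 345 CPM in tumor 4, against 201 to 239 CPM in the other tumors. In endothelial-gated cells Psmb5 was at 363 CPM in tumor 4 (169.7 to 195 CPM in the others), and the summed level of the 46 genes was 8383 CPM in tumor 4 (5171 to 5813 CPM in the others). In neuron-gated cells Psmb10 was at 107 CPM in tumor 2 (27.6 to 40.0 CPM in the others) and Psme1 at 103 CPM in tumor 2 (39.8 to 50.0 CPM in the others).

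The change in tumors differed between microglia/macrophage-gated and oligodendrocyte-gated cells by the test of the difference itself for 2 of 43 genes, no larger a share than over all genes: Psmb10 (1.60 log2 units more positive in microglia) and Psme1 (1.49 log2 units more positive in microglia).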

How the results depend on the processing

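Counts of called proteasome genes stayed within 1.5 times the reported count for all cells and oligodendrocytes under every alternative run. They moved past it as follows: in microglia to 7 to 21 with each library left out (13 reported); in endothelial cells to 5 without the filter on low counts and 0 to 2 with each library left out (1 reported); in neurons to 2 by DESeq2 and 0 to 5 with each library left out (0 reported). Progenitors against microglia gave 34 with library totals, 9 with 5000 barcodes, 5 with gates of at least 4 markers and 3 to 15 with each tumor left out (15 reported). Cycling against other progenitors gave 4 with DESeq2 size factors, 4 with library totals, 0 by DESeq2, 11 by limma voom, 3 with 5000 barcodes and 1 to 7 with each tumor left out (7 reported). The difference between gates gave 1 to 2 with each library left out and 3 with library totals (2 reported). The causes were not tested, and the shares of all genes called under these alternatives are not given here. Over the named genes, 1328 of 1495 alternative values kept direction and side of the threshold, 113 lost the call, 25 gained it, 29 uncalled values changed sign and 0 called values did. Endothelial fits with a mitochondrial limit of 10% or with 5000 barcodes were not run, since too few controls held 20 cells. Some cell settings also changed how many libraries entered a fit. The endothelial gate rests on 3 controls of 54641 to 150646 UMIs.

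Tumor and control libraries share replicate numbers, but same-numbered libraries did not deviate together (correlations 0.0511, 0.0248, -0.00418 and 0.0366), so the numbers were not taken as pairs. A replicate block on them gave 19 called genes over all cells, 7 in microglia and 11 in oligodendrocytes. Within tumors the reported fits hold the tumor as a block; with no replicate block 2 genes were called between progenitors and microglia and 0 between cycling and other progenitors.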

Other observations

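The level of the 46 genes in gates that entered no comparison is given as values. In astrocyte-gated cells their sum was 3512 to 3876 CPM in the 4 controls and 3451 to 7746 CPM in the 5 tumors, with tumor 3 inside or below the control range. In oligodendrocyte precursor-gated cells of the tumors it was 5153, 6610, 5621, 8043 and 7406 CPM in tumors 1 to 5, and in pericyte and smooth-muscle-gated cells of tumors 2, 3 and 4 it was 6169, 4816 and 7897 CPM. Erythroid-gated cells gave 2943, 2988 and 2498 CPM in controls 1, 2 and 3 and 1604, 4835 and 1250.1 CPM in tumors 2, 3 and 5, so that tumors 2 and 5 lay below every control there.

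In the microglia, oligodendrocyte and endothelial gates, log2 fold changes over all genes tested of tumor over control followed the summed exon length of the gene. In microglia the median was 0.70 for genes under 1 kb, 0.69 from 1 to 2 kb, 0.35 from 2 to 4 kb and -0.21 above 4 kb, and the proteasome genes had medians of 0.84 (2 genes), 0.62 (12 genes), 0.33 (20 genes) and 0.45 (10 genes) in the same classes. The proteasome genes thus lay below all genes from 1 to 4 kb. Across genes, which are not independent replicates, Spearman's rho between length and fold change was -0.39 over all genes and -0.26 over the 44 proteasome genes. In oligodendrocytes rho was -0.38 over all genes, with medians of 0.54, 0.68, 0.46 and -0.27 in these classes against 1.06, 0.75, 0.36 and 0.59 for the proteasome genes, which lay below all genes from 2 to 4 kb. In endothelial cells rho was -0.38 as well, with medians of 0.45, 0.61, 0.44 and -0.18 against 0.27, 0.57, 0.19 and 0.29 for the proteasome genes, which lay above all genes only over 4 kb. Over all cells rho was -0.14 over all genes and -0.47 over 45 proteasome genes, whose medians were 1.50, 1.28, 0.72 and 0.61 against -0.20, 0.57, 0.38 and -0.18 over all genes. The part of gene length in the counts of called genes was not tested.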
